A study of Mus musculus with 28 samples.

Results

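Macrophages that engulf dying regulatory T (Treg) cells were compared under a pair of opposing cytokines, interferon-γ (IFN-γ) and interleukin-10 (IL-10). The comparison used the 4 libraries labelled as Treg-phagocytic with IFN-γ and the 4 labelled as Treg-phagocytic with IL-10, which are 8 of the 28 RNA-seq libraries of the series and were chosen by their labels alone. The cells were wild-type mouse bone marrow-derived macrophages (BMDMs), which are primary macrophages grown from marrow. In the series they were cultured for 48 h, which the sample titles give as the time with the cytokine or in non-polarizing condition. They were cultured with apoptotic Treg cells or apoptotic conventional CD4+ T (Tconv) cells, killed with ATP and NAD+ and stained with a fluorescent anti-CD4 antibody. They were then sorted by whether they had taken up T cells. IFN-γ or IL-10 was present at 50 ng/mL, and 4 libraries came from non-polarized BMDMs that received neither cytokine. The cytokine-treated Tconv-phagocytic and non-phagocytic macrophages, 4 libraries in each of the 4 groups, serve here only to show where the Treg-phagocytic response differed. Each Treg-phagocytic group held 2 libraries labelled Ax647 and 2 labelled BV421 after the antibody dye, and both dyes were pooled. The sample titles and the library names exchange these dye names throughout, which leaves the same split, so the titles' names are used. Values of the 4 libraries of a group are given in the order Ax647-1, Ax647-2, BV421-1 and BV421-2. The labels do not say whether the libraries of a group came from separate animals or cultures, so the p-values measure only the spread between these libraries, which may be technical.

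As background, IFN-γ signals through the kinases JAK1 and JAK2 and induces the transcription factor IRF1, and with it antigen presentation, interferon-inducible GTPases and T cell-attracting chemokines. IL-10 signals through JAK1 and TYK2 to STAT3, which induces the feedback inhibitor SOCS3 and repressors of inflammatory genes. Clearance of apoptotic cells, called efferocytosis, starts with phosphatidylserine on the dying cell, which is read directly or through bridging proteins such as GAS6, protein S, MFG-E8 and C1q by receptors that include MERTK and AXL. The engulfed cell is degraded in lysosomes, and its cholesterol is exported by transporters under control of the nuclear receptor LXR.

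Levels were deposited as TPM, a transcript abundance normalised to transcript length and to the total of the library. Differences are IFN-γ minus IL-10 on the scale of log2(scaled TPM + 1), given in parentheses with ± the standard error (SE) where the test is reported, so a positive value is higher with IFN-γ. This scale understates the change of low genes. The scaling factors averaged -0.15 log2 units in the IFN-γ libraries and 0.15 in the IL-10 libraries. The difference of an abundant gene therefore lies above the log2 ratio of its printed TPM values. In a low gene that is higher with IFN-γ, such as Iigp1, the added 1 TPM can place the difference below that ratio. A gene was called when the Benjamini-Hochberg adjusted p of limma was under 0.05. No count tables were used. One read in a transcript of 1000 effective bases was worth 0.322 to 0.586 TPM in the IFN-γ libraries and 0.0997 to 0.133 TPM in the IL-10 libraries, judged from the steps between low values, so the IFN-γ libraries were shallower. They also detected fewer genes, 14742 ± 427 (SD, n = 4) against 17465 ± 350 above 0 TPM, and varied more, with a median SD per gene of 0.257 against 0.112 log2 units. The part of depth in these differences was not tested. The first principal component, 52.5% of the variance, separated the cytokines. IFN-γ Ax647-2, the shallowest library, lay apart from the other IFN-γ libraries on the second component, and without it the number of genes called was 4883 in place of 4825.

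Across all genes, the cytokines separated a large share of the transcriptome. The 11839 genes tested reached 1 TPM in 4 or more of the 8 libraries, and 4825 of them were called (40.8%), 2484 higher with IFN-γ (21%) and 2341 lower (19.8%). The counts of each gene list below can be set against these shares of 21% and 19.8%. Most differences were small. Of the called genes, 1011 differed by at least 1 log2 unit, 689 of them higher and 322 lower, 17 differed by at least 3, and 1608 by less than 0.5. Without scaling, the same test called 1494 genes higher and 4688 lower, and the median of all genes moved from -0.03 to -0.29. Directions are therefore given relative to the median gene. In the deposited TPM, all 4 IFN-γ libraries lay above all 4 IL-10 libraries for 1366 genes (11.5%) and below them for 4485 (37.9%). In the scaled TPM these counts were 2429 (20.5%) and 2466 (20.8%).

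**Figure D1:**
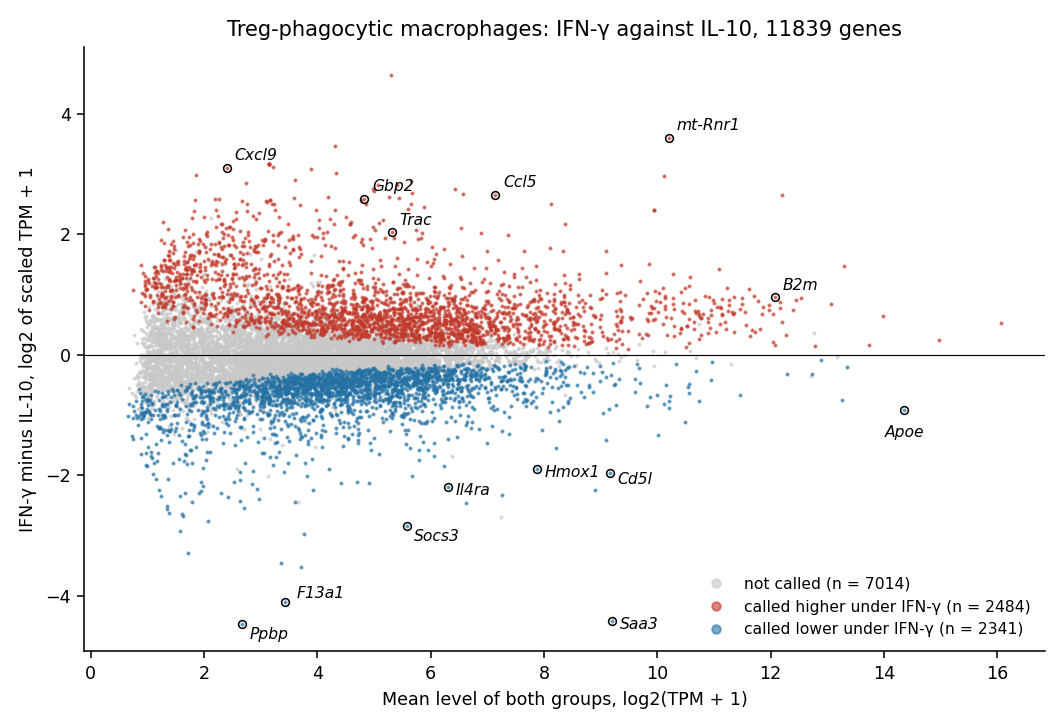
Difference between IFN-γ and IL-10 (log2 of scaled TPM + 1, y axis) against the mean level of both groups (x axis) for 11839 genes in Treg-phagocytic macrophages, each point a gene. The 2484 genes called higher with IFN-γ are red and the 2341 called lower are blue, and the lowest named points are Ppbp, Saa3 and F13a1, all below -4.

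Macrophage markers were abundant under both cytokines. The summed level of 20 macrophage markers was 38140 to 38700 TPM with IFN-γ and 35360 to 36480 TPM with IL-10, and none of the 20 was at 0 in any library. Adgre1, which encodes the surface antigen F4/80, was at 609, 585, 573 and 567 TPM with IFN-γ and 709, 726, 731 and 759 TPM with IL-10 and was not called (-0.03 ± 0.03, adjusted p = 0.55). Spi1, the gene of the lineage factor PU.1 (-0.06 ± 0.05, adjusted p = 0.32), and Cd68 (-0.06 ± 0.03, adjusted p = 0.224) were not called either. Of 20 alternative settings, Adgre1 was called lower in 1, Spi1 in 2 and Cd68 in 3. Other macrophage genes differed. Csf1r, the receptor for the growth factor CSF1, was at 449, 438, 493 and 439 TPM against 845, 787, 781 and 752 TPM (-0.50 ± 0.05, adjusted p = 3.80e-05), so it was lower with IFN-γ. Lyz2, lysozyme, was higher (0.65 ± 0.02, adjusted p = 6.38e-08), as were the adaptor gene Tyrobp (0.83) and Aif1 (1.21). Of the 19 markers tested, 7 were higher and 8 lower, which became 4 and 13 without scaling.

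T cell transcripts were present in all 8 libraries and were higher with IFN-γ. Summed over 25 T cell markers, the IFN-γ libraries held 908.5 to 1395 TPM (median 1085) and the IL-10 libraries 360.3 to 398.4 TPM (median 389.6), with at most 1 marker at 0 in a library. All 23 markers that passed the filter were called higher, at a median log2 difference of 1.96, and 22 were separate in the deposited TPM. The exception was Il7r, at 106.37 to 118.5 TPM with IFN-γ and 105.2 to 111.21 TPM with IL-10. It made up a large part of the IL-10 sums. Trac, the T cell receptor α constant gene, was at 87.9, 75.5, 68.9 and 52.95 TPM with IFN-γ and 13.3, 27.4, 21.4 and 21.3 TPM with IL-10, and at 7.1 ± 4.64 TPM (SD, n = 4) in non-polarized macrophages. Foxp3, the transcription factor that defines Treg cells, was at 13.4, 10.4, 14.3 and 11.5 TPM against 4.21, 5.78, 6.34 and 5.27 TPM, with no overlap (1.33 ± 0.15, adjusted p = 8.20e-05). Of 14 Treg markers tested, 13 were higher, including Il2ra (1.82) and the folate receptor 4 gene Izumo1r (1.92), and Nrp1, which macrophages also express, was lower (-0.61). The most abundant of the 13 was Capg, at 947.28 to 1037.41 TPM against 791.57 to 815.33 TPM. The Treg marker sum, mostly Capg in these 8 libraries, was 1182 to 1253 TPM with IFN-γ and 949 to 978 TPM with IL-10. In non-polarized macrophages that sum was 1351 to 1455 TPM. The cytokine difference of 17 Treg markers was also set against that in other populations, in the test described below. Against Tconv-phagocytic macrophages, 1 was called higher and 1 lower (median -0.40), where 4.44% and 9.27% of all genes were called. Against non-phagocytic ones, none was called higher and 1 lower (median -0.39), beside 2.75% and 6.68% of all genes. Tconv-phagocytic and non-phagocytic macrophages showed the same order of T cell marker sums, 926 to 1132 and 766.8 to 1246 TPM with IFN-γ against 255 to 310.2 and 213.2 to 233.7 TPM with IL-10. Non-polarized macrophages held 227.9 to 363.8 TPM. In bulk RNA, fewer cells of a type and less RNA per cell cannot be told apart. B cell and plasma cell markers were at 129.6 to 189.2 TPM in sum with IFN-γ and 93.56 to 101.6 TPM with IL-10, and erythroid markers at 19.85 to 27.24 against 6.48 to 12.81 TPM. Neutrophil markers were at 87.63 to 97.92 against 119.7 to 127.2 TPM, with 1 called higher and 3 lower of 7 tested. Csf3r, the receptor for a granulocyte growth factor, made up much of that sum, at 36.61 to 43.84 TPM with IFN-γ and 74.02 to 84.25 TPM with IL-10, while S100a9 was at 22.32 to 28.89 against 10.68 to 15.6 TPM. Natural killer cell markers did not exceed 4.64 TPM with IFN-γ.

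**Figure D2:**
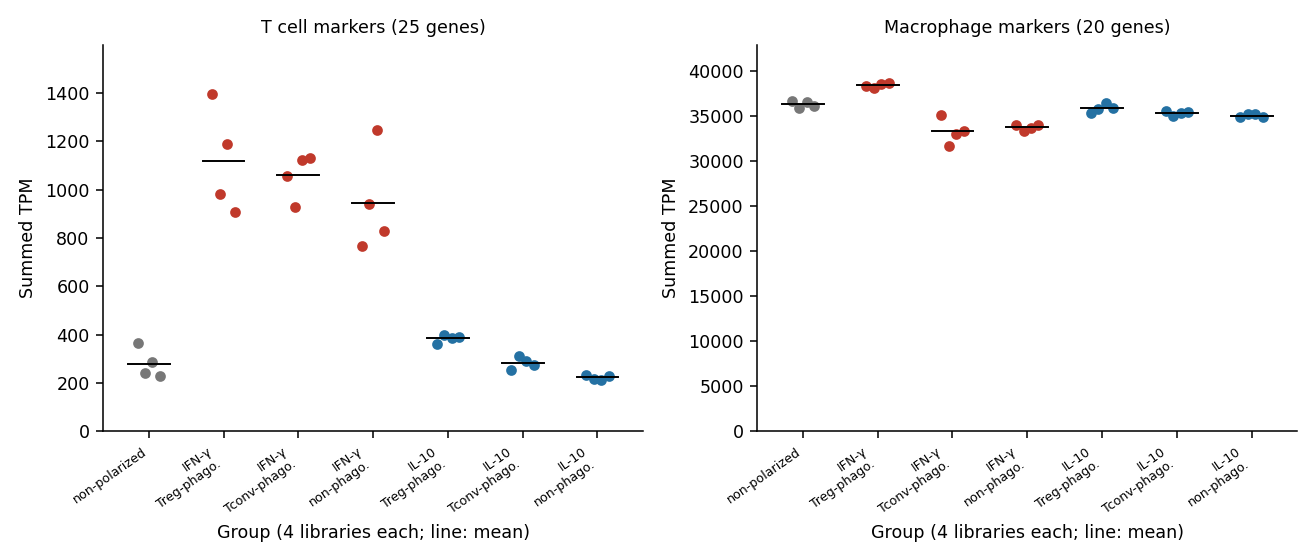
Summed TPM of 25 T cell markers (left) and 20 macrophage markers (right) in each library of the 7 groups, 4 points a group with a line at the mean. T cell marker sums are at least 766.8 TPM in every IFN-γ library and at most 398.4 TPM in every IL-10 library, while macrophage marker sums lie between 31710 and 38700 TPM in all groups.

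Saa3, Ppbp and F13a1 had the most negative differences among named genes. Saa3, an acute-phase serum amyloid A gene, was at 125, 106, 133 and 94.1 TPM with IFN-γ and 3059.7, 2982, 2989.7 and 3012 TPM with IL-10, a 21.4-fold difference after scaling (-4.42 ± 0.08, adjusted p = 2.88e-09), and at 13.5 ± 3.23 TPM in non-polarized macrophages. Ppbp, the precursor of the chemokine CXCL7, was at 0.36, 0, 0.82 and 0 TPM against 30.7, 27.2, 32 and 30.6 TPM (-4.46 ± 0.22, adjusted p = 4.04e-07), so that 2 IFN-γ libraries had no reading at all. F13a1, the A subunit of coagulation factor XIII and a marker of alternatively activated macrophages, was at 1.41, 2.57, 1.58 and 0.32 TPM against 45.4, 42.5, 46.4 and 47.8 TPM (-4.09 ± 0.27, adjusted p = 2.69e-06). In all 3 genes the lowest IL-10 library was far above the highest IFN-γ library. Nxpe5 (-3.51), the endothelin receptor gene Ednrb (-3.46) and the CD300 family gene Cd300ld5 (-2.97) followed. Igkv15-103, an immunoglobulin κ variable gene, was at 0 in all 4 IFN-γ libraries and at 3.42, 8.08, 10.2 and 9.71 TPM with IL-10. The most positive differences among named genes were those of the chemokine Cxcl9 (3.10) and of RNAs that are not usually polyadenylated, among them Rnu3b1 (3.18), 1 of 4 near-identical U3 small nucleolar RNA genes between which reads can be divided. The most positive value of all was that of the predicted gene Gm37376 (4.65 ± 0.74, adjusted p = 8.33e-04), which is named here because of its value.

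Components of both receptor pathways were detected under both cytokines. The receptor genes Ifngr2 (-0.18), Il10ra (-0.13) and Il10rb (-0.08) were not called, and Ifngr1, the ligand-binding chain of the IFN-γ receptor, was lower with IFN-γ (-0.54 ± 0.07, adjusted p = 2.26e-04). Ifngr2, Il10ra and Il10rb were called lower in 2, 3 and 2 of 20 alternative settings. Of the 27 receptor, JAK, STAT, IRF and SOCS genes, all tested, 6 were higher and 7 lower (6 and 16 without scaling). That is near the 21% and 19.8% of all genes. Stat3 was at 36.1, 36.9, 41.3 and 42.7 TPM with IFN-γ and 83.9, 84.5, 91.5 and 91.2 TPM with IL-10 (-0.85 ± 0.08, adjusted p = 2.70e-05), and Stat6, which relays IL-4 signals, was lower too (-0.54). The groups overlapped in neither gene. Irf1 went the other way, at 88.5, 115, 96.9 and 119 TPM against 66.7, 65.99, 71.8 and 68.7 TPM (0.90 ± 0.11, adjusted p = 1.19e-04), and Irf7, an amplifier of type I interferon responses, at 90.7, 115, 90.4 and 103 TPM against 27.4, 34.99, 31.9 and 30.1 TPM (1.95 ± 0.11, adjusted p = 8.75e-07). Irf8, a lineage factor of macrophages, was slightly lower with IFN-γ (-0.23 ± 0.04, adjusted p = 0.0012).

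The feedback inhibitor genes Socs1 and Socs3 differed in opposite directions. Socs1, the inhibitor of IFN-γ signalling, was at 5.8, 3.58, 6.5 and 3.48 TPM with IFN-γ and 1.21, 1.99, 1.23 and 1.61 TPM with IL-10 (1.40 ± 0.22, adjusted p = 7.09e-04). Socs3, a target of STAT3, was at 16.3, 17.6, 12.5 and 14.4 TPM with IFN-γ and 134, 144, 142 and 136 TPM with IL-10, 7.14-fold higher with IL-10 after scaling (-2.84 ± 0.10, adjusted p = 8.15e-08), and at 3.79 ± 1.16 TPM in non-polarized macrophages. Cish, which T cells also express, was higher with IFN-γ (1.25 ± 0.20, adjusted p = 8.59e-04), and so was Stat4 (1.55), a STAT of lymphocytes. Both were higher where the T cell marker sums were higher, and the part of T cell RNA in them was not tested.

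Stretches of the promoters of 5 genes are shown because they hold a letter pattern of the STAT dimer site or of the interferon regulatory factor (IRF) site. The RefSeq promoter table (GRCm38.p6, 250 bases before to 50 after the start) held 7 of 8 genes looked up, and 5 had a match upstream of the start. Both strands were searched for TTCNNNGAA (STAT) and GAAANNGAA (IRF), patterns that do not rest on binding data from these cells. Each stretch runs 5′ to 3′ on the strand of its gene, with the matching 9 bases in capitals. The Irf1 stretch (chr11:53769899-53769957, plus strand) and the Socs3 stretch (chr11:117969487-117969545, minus strand) hold the STAT pattern, and those of Gbp2 (chr3:142620580-142620638, plus strand), Cxcl9 (chr5:92328221-92328279, minus strand) and Cxcl10 (chr5:92349069-92349127, minus strand) the IRF pattern, in Gbp2 on the opposite strand. Of these 5 genes, Cxcl10 was not called between the cytokines.
Irf1: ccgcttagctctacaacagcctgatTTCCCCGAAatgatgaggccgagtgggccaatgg
Socs3: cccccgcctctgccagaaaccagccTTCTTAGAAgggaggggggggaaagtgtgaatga
Gbp2: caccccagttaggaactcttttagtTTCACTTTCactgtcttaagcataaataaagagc
Cxcl9: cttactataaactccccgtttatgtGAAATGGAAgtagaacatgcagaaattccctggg
Cxcl10: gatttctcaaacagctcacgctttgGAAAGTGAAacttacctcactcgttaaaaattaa
The STAT pattern was in 8.83% of promoters of genes called higher, 8.26% of genes called lower, 8.26% of all genes tested and 9.55% of all 27025 promoters. The IRF pattern was in 11.3% of the promoters of genes called higher and 8.16% of those called lower, against 8.96% of the genes tested and 9.76% of all promoters. Among genes called with a log2 difference of at least 1 in either direction, the IRF pattern was in 14.1% of those higher and 13.2% of those lower, and the STAT pattern in 10.6% and 12.8%. A match describes the letters and is not a binding site.

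Interferon-inducible GTPases were higher with IFN-γ. Guanylate-binding proteins (GBPs) assemble on the membranes of vacuoles that hold pathogens. Of 11 listed, 9 were tested and 8 were called higher, with none lower, a median log2 difference of 1.59 against -0.03 for all genes. Gbp2 was at 47.9, 73.5, 54.1 and 75.3 TPM with IFN-γ, 11.7, 12.9, 10.5 and 11.7 TPM with IL-10 and 4.75 ± 1.13 TPM in non-polarized macrophages (2.59 ± 0.16, adjusted p = 1.89e-06). Gbp4 was at 11.1, 13.01, 15.3 and 13.6 TPM against 1.75, 2.31, 3.08 and 1.81 TPM (2.39 ± 0.17, adjusted p = 4.93e-06), and Gbp8 (1.80), Gbp9 (1.76), Gbp5 (1.21) and Gbp7 (0.71) were also higher. The Gbp7 call was lost without scaling (0.47, adjusted p = 0.062), without a filter (adjusted p = 0.0516) and in the libraries of either dye alone (adjusted p = 0.119 and 0.0983), and the Gbp5 call in the Ax647 libraries alone (adjusted p = 0.0615). Gbp3 was the exception, with 12.1, 12.8, 12.9 and 9.06 TPM against 20.98, 11.9, 9.41 and 9.4 TPM and overlapping groups (0.21 ± 0.24, adjusted p = 0.518). The immunity-related GTPases, which disrupt such vacuoles, numbered 5 higher and 1 lower of 7 tested. Tgtp2 was at 10.3, 12.7, 13.5 and 7.18 TPM against 2.09, 2.31, 2.2 and 4.08 TPM (1.94 ± 0.23, adjusted p = 1.13e-04), Iigp1 at 5.29, 4.21, 3.93 and 3.29 TPM against 1.24, 1.28, 1.13 and 0.49 TPM (1.55 ± 0.20, adjusted p = 2.35e-04), and Igtp (1.11) and Irgm1 (0.80) were higher by less. Irgm2 was not called (0.06 ± 0.14, adjusted p = 0.772). Reads of near-identical copies such as Tgtp1 and Tgtp2, and of related GBPs, can be divided between them by the quantification.

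Genes of antigen presentation by MHC class I were mostly higher with IFN-γ, 15 of 20, with 1 lower (11 and 4 without scaling). B2m, the light chain of class I molecules, was at 5351, 5376, 5398 and 5506 TPM with IFN-γ and 3433, 3424, 3428 and 3429 TPM with IL-10, a tight and separate pair of groups (0.96 ± 0.03, adjusted p = 3.53e-08). H2-T23 was at 667, 737, 680.2 and 725 TPM against 415, 433, 434 and 421 TPM (1.02 ± 0.05, adjusted p = 4.16e-07), and H2-Q6 was higher as well (1.48). The proteasome activator subunit gene Psme2 was at 268, 517, 248 and 281 TPM against 150.1, 191, 162 and 149.6 TPM (1.24 ± 0.21, adjusted p = 0.00125), with Ax647-2 far above the other IFN-γ libraries. The immunoproteasome subunit Psmb9 (0.69 ± 0.10, adjusted p = 4.35e-04) and the peptide transporter Tap1 (0.41 ± 0.05, adjusted p = 1.85e-04) were called with smaller differences, and the Tap1 groups overlapped in the deposited TPM. Without scaling Tap1 was not called (0.11, adjusted p = 0.0828).

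MHC class II genes did not move as 1 block. Of 15 tested, 7 were higher and 1 lower, and without scaling 3 were higher and 5 lower. H2-DMa, a chaperone subunit of peptide loading, was at 106, 136, 126 and 132 TPM with IFN-γ and 88.3, 88.1, 85.9 and 83.8 TPM with IL-10 (0.82 ± 0.09, adjusted p = 6.11e-05), and H2-Ob, its antagonist's β chain, which B cells express, at 13.9, 14.3, 7.22 and 12.3 TPM against 3.36, 3.64, 3.47 and 3.94 TPM (1.71 ± 0.21, adjusted p = 1.39e-04). H2-Ab1, a class II β chain, overlapped between the groups, at 781, 982, 880.3 and 998 TPM against 858, 887, 875 and 872 TPM (0.35 ± 0.08, adjusted p = 0.00742, but 0.05 and adjusted p = 0.544 without scaling), and both were above the non-polarized 433 ± 5.88 TPM. Cd74, the invariant chain, was at 1939, 2298, 2149.8 and 2232 TPM against 2905, 2941, 2971 and 2878 TPM and was not called (-0.14 ± 0.06, adjusted p = 0.0813). Ciita, the master activator of class II genes, was the member that was lower, at 1.82, 3.4, 4.83 and 2.97 TPM with IFN-γ and 7.87, 7.5, 7.78 and 6.44 TPM with IL-10 (-0.78 ± 0.22, adjusted p = 0.019). The Ciita call was lost without IL-10 Ax647-1, Ax647-2 or BV421-1, each in turn, at adjusted p of 0.0505 to 0.0548, and Cd74 was called without IFN-γ Ax647-2, at adjusted p = 0.0497.

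Of 22 chemokine ligands listed, 13 were tested, with 5 higher and 2 lower with IFN-γ (5 and 4 without scaling). Cxcl9, a ligand of CXCR3 on T cells, was at 7.31, 31.5, 12.4 and 6.72 TPM with IFN-γ and 0.29, 1.75, 0.58 and 0.57 TPM with IL-10 (3.10 ± 0.44, adjusted p = 4.27e-04), and the spread among the IFN-γ libraries was wide. Ccl5 was at 295, 311, 314 and 347 TPM against 54.1, 72.9, 65.1 and 54.1 TPM, 6.29-fold higher (2.65 ± 0.11, adjusted p = 1.25e-07), and at 32.2 ± 10.6 TPM in non-polarized macrophages. The related chemokines Ccl3 (1.57 ± 0.07, adjusted p = 2.39e-07) and Ccl4 (0.98 ± 0.13, adjusted p = 2.58e-04) were higher, as was Ccl9 (0.81), while Ccl6 was lower (-0.49 ± 0.05, adjusted p = 2.67e-05). T cells express Ccl5, Ccl3 and Ccl4 too, and the part of T cell RNA in these levels was not tested. Cxcl10 overlapped, at 7.1, 3.27, 2.02 and 5.61 TPM against 1.94, 2.48, 2.26 and 3.08 TPM (0.81 ± 0.30, adjusted p = 0.0576), and was called without IFN-γ BV421-1 (1.09, adjusted p = 0.00741).

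Cytokine genes were divided, with 5 of 14 tested higher and 4 lower, against 21% and 19.8% of all genes. Tnf, the central inflammatory cytokine, was at 18.2, 18.99, 15.5 and 17.8 TPM with IFN-γ and 5.49, 7.14, 4.81 and 6.53 TPM with IL-10 (1.69 ± 0.14, adjusted p = 1.11e-05). Il27 was at 3.54, 12.8, 7.92 and 12.1 TPM against 3.75, 4.14, 2.98 and 3.02 TPM with overlapping groups (1.31 ± 0.34, adjusted p = 0.0123), Il15, a survival factor of lymphocytes, was higher without overlap (1.14 ± 0.18, adjusted p = 8.08e-04), and so were Il18bp (0.86) and the growth factor gene Igf1 (0.80). Il1b was lower with IFN-γ, at 4.72, 3.53, 6.22 and 3.08 TPM against 10.8, 15.7, 14.8 and 13.8 TPM (-1.22 ± 0.20, adjusted p = 8.54e-04), and Osm (-0.53) and Vegfa (-0.40) were lower as well. Il10 itself was low in both groups, at 1.74, 2.1, 2.27 and 1.43 TPM against 2.03, 1.79, 2.28 and 1.39 TPM (0.20 ± 0.19, adjusted p = 0.428). The inflammatory genes Il6, Il12b, Nos2, Ido1 and Acod1 and the alternative activation genes Arg1 and Cd163 were below the filter.

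Antiviral genes known from type I interferon responses were higher in 15 of 23 tested members, with none lower and a median of 0.91. Ifit3 was at 31.5, 32.9, 29.4 and 35.4 TPM with IFN-γ and 8.06, 8.33, 8.56 and 10.3 TPM with IL-10 (2.04 ± 0.11, adjusted p = 7.24e-07), and Ifit2 (1.54), which like Ifit3 binds viral RNA complexes, was also higher. Bst2, the virus tether, was at 727, 784, 800.1 and 825 TPM against 351, 394, 378 and 383 TPM (1.35 ± 0.06, adjusted p = 1.78e-07). Isg15, a ubiquitin-like modifier (1.15 ± 0.12, adjusted p = 6.51e-05), its protease Usp18 (1.31 ± 0.22, adjusted p = 0.001) and the nucleic acid sensor Zbp1 (1.24 ± 0.14, adjusted p = 9.54e-05) were higher without overlap between the groups.

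**Figure D3:**
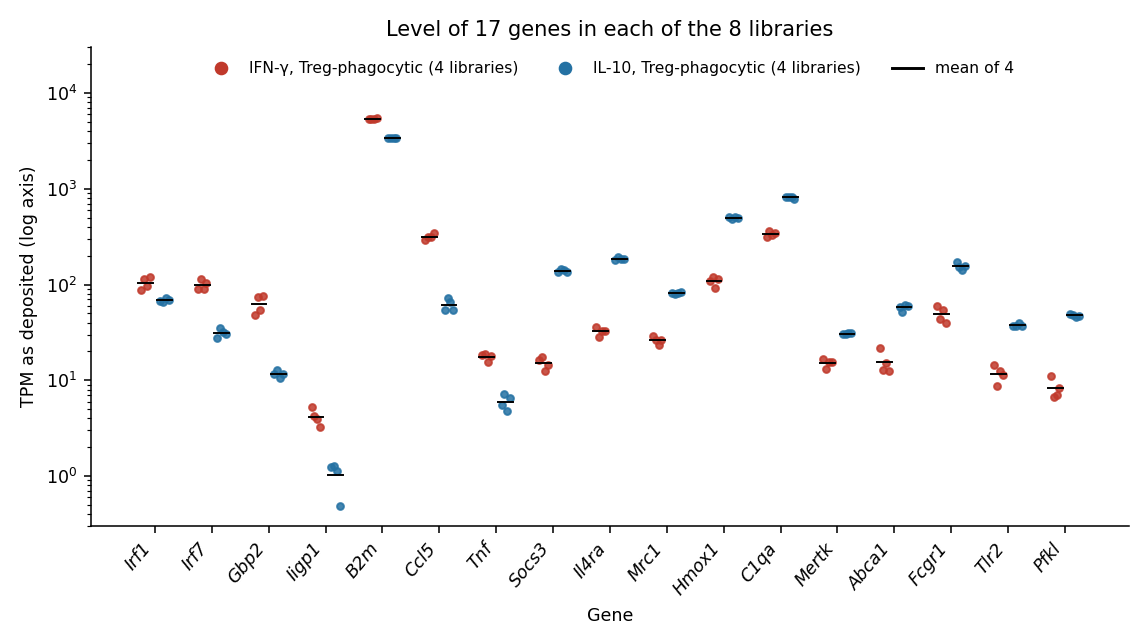
TPM as deposited (log axis) of 17 genes in the 4 IFN-γ (red) and 4 IL-10 (blue) libraries of Treg-phagocytic macrophages, each point a library and each line a mean. Irf1 to Tnf lie higher with IFN-γ and Socs3 to Pfkl higher with IL-10, with no overlap between the groups in any of the 17 genes.

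The IL-10 list held STAT3 targets and genes of alternatively activated macrophages. Of 29 genes, 23 were tested, 15 were lower with IFN-γ and 4 higher, at a median of -0.70. Il4ra, the α chain of the IL-4 receptor, was at 35.9, 28.1, 32.4 and 33.1 TPM with IFN-γ, 182, 192, 184 and 185 TPM with IL-10 and 44.9 ± 1.09 TPM in non-polarized macrophages (-2.20 ± 0.07, adjusted p = 5.36e-08). Bcl3, a nuclear modulator of NF-κB, was at 24.1, 24.5, 21.6 and 18.4 TPM against 61.5, 56.95, 59.8 and 52.6 TPM (-1.06 ± 0.10, adjusted p = 2.31e-05), and the transcriptional repressors Nfil3 (-1.01 ± 0.08, adjusted p = 9.69e-06) and Sbno2 (-1.45 ± 0.06, adjusted p = 1.75e-07) were lower with IFN-γ by similar or larger amounts. In the deposited TPM, all 4 IFN-γ libraries were below the non-polarized mean for Il4ra and also for Bcl3. That mean was 24.7 ± 1.95 TPM for Bcl3. The non-polarized libraries were not in the main fit, so this comparison is neither scaled nor tested. Hmox1, the haem-degrading enzyme, was at 109.7, 119, 92.5 and 114 TPM against 502, 481, 511 and 494 TPM (-1.89 ± 0.08, adjusted p = 1.59e-07), and Mrc1, the mannose receptor CD206, at 28.9, 26.4, 23.5 and 26.1 TPM against 81.7, 79.6, 82.5 and 83 TPM (-1.31 ± 0.07, adjusted p = 7.39e-07). Tgfbi, a TGF-β-induced matrix protein, was lower too (-1.75 ± 0.09, adjusted p = 5.56e-07). Exceptions in the list were Marco, a scavenger receptor, at 6.3, 8.08, 9.14 and 6.39 TPM with IFN-γ and 1.68, 1.77, 1.64 and 2.36 TPM with IL-10 (1.79 ± 0.17, adjusted p = 3.09e-05), and the lipid receptor Trem2 (0.58 ± 0.04, adjusted p = 2.24e-06), both higher with IFN-γ. Il1rn, the interleukin-1 receptor antagonist, was not called (0.10 ± 0.17, adjusted p = 0.673).

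Genes for recognising and engulfing apoptotic cells were mostly lower with IFN-γ, although all 8 libraries came from cells sorted as phagocytic. Of 32 listed genes, 26 were tested, 14 were lower and 4 higher, at a median of -0.47. Mertk was at 16.8, 13.1, 15.5 and 15.6 TPM with IFN-γ and 30.4, 30.3, 30.96 and 31.5 TPM with IL-10 (-0.69 ± 0.09, adjusted p = 2.19e-04), and Axl at 39.4, 38.8, 34.99 and 29.1 TPM against 64.05, 58.4, 61.5 and 61.1 TPM (-0.48 ± 0.09, adjusted p = 0.00212). Their ligands Gas6, at 146, 147, 125 and 127 TPM against 286, 283, 289 and 285 TPM (-0.77 ± 0.06, adjusted p = 7.09e-06), and Pros1, protein S (-1.66 ± 0.23, adjusted p = 3.20e-04), were lower as well. The 3 chains of C1q, which bridges apoptotic cells to phagocytes and starts the classical complement pathway, were lower together. C1qa was at 313, 358, 329 and 347 TPM against 814, 831, 814 and 791 TPM (-0.97 ± 0.06, adjusted p = 1.08e-06), C1qb differed by -0.77 and C1qc by -0.81. Lrp1, an engulfment receptor (-1.02 ± 0.10, adjusted p = 2.88e-05), and the integrin chain Itgb5 (-0.88 ± 0.06, adjusted p = 5.11e-06) were also lower. Higher with IFN-γ were the fatty acid and phosphatidylserine receptor Cd36, at 216, 186, 180.3 and 215 TPM against 139, 161, 160.4 and 144 TPM (0.70 ± 0.08, adjusted p = 9.79e-05), Anxa1 (1.27 ± 0.04, adjusted p = 3.60e-08) and the don't-eat-me signal Cd47 (0.40), which T cells also carry and which was not called without scaling (0.10, adjusted p = 0.199). Mfge8 fell just short of the threshold, at 221, 227, 219 and 212 TPM against 247, 259, 250.01 and 248 TPM (0.11 ± 0.04, adjusted p = 0.0502), and its difference was -0.19 without scaling. It was called without IFN-γ Ax647-1, BV421-1 or BV421-2, each in turn, at adjusted p of 0.0293 to 0.0377.

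Other uptake receptors were mixed. Of 14 scavenger receptors tested, 5 were lower and 3 higher. Cd5l, a secreted scavenger protein of macrophages, was at 263, 253, 268 and 259 TPM with IFN-γ and 1258, 1276, 1223 and 1225 TPM with IL-10 (-1.95 ± 0.03, adjusted p = 2.09e-09). Clec7a, the β-glucan receptor Dectin-1, was higher, at 184, 149, 162 and 146 TPM against 65.5, 72.8, 72.5 and 74.8 TPM (1.45 ± 0.07, adjusted p = 4.01e-07). Among Fcγ receptor genes, 5 of 6 were lower. The high-affinity receptor Fcgr1 was at 59.5, 43.5, 54.5 and 39.4 TPM against 172, 152, 141 and 155 TPM (-1.35 ± 0.11, adjusted p = 1.46e-05), the inhibitory Fcgr2b at 141, 148, 145 and 141 TPM against 421, 425, 429 and 421 TPM (-1.25 ± 0.04, adjusted p = 4.61e-08), and Fcgr3 (-0.70) and Fcgr4 (-0.50) were lower by less. Their shared signalling chain Fcer1g was higher (0.59 ± 0.05, adjusted p = 7.62e-06).

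Complement genes were lower in 9 of 16 tested members and higher in 4. C5ar1, the receptor for C5a, was at 37.03, 29.2, 36.7 and 27.9 TPM with IFN-γ and 125, 137, 133 and 128 TPM with IL-10 (-1.68 ± 0.09, adjusted p = 6.43e-07). Cfp, properdin, which stabilises the alternative pathway convertase, was higher (1.27 ± 0.06, adjusted p = 3.49e-07). C3, the central component, was higher too (0.53 ± 0.08, adjusted p = 6.70e-04), but its groups overlapped, at 63.7, 53.7, 57.1 and 54.03 TPM against 47.4, 46.2, 45.1 and 55.6 TPM.

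Cholesterol export and lysosomal genes were lower with IFN-γ. In the LXR and efflux list, 11 of 20 tested genes were lower and 3 higher. Abca1, the main cholesterol exporter, was at 21.6, 12.7, 15.03 and 12.4 TPM with IFN-γ and 58.1, 52.1, 61.04 and 59.2 TPM with IL-10 (-1.58 ± 0.15, adjusted p = 2.86e-05). Apoe, the lipid carrier and one of the most abundant transcripts, was at 13678, 13884, 14022 and 13529 TPM against 35399, 30665, 30234 and 32075 TPM (-0.92 ± 0.05, adjusted p = 5.37e-07), and the phospholipid transfer protein gene Pltp was lower (-1.11 ± 0.03, adjusted p = 2.34e-08). The second exporter Abcg1 differed little (-0.35 ± 0.10, adjusted p = 0.0229), and its call was lost without IFN-γ Ax647-1 or BV421-2 or without IL-10 Ax647-2 or BV421-1, each in turn, at adjusted p of 0.0578 to 0.0616. The partners that move cholesterol out of lysosomes differed in sign, Npc1 lower (-0.82 ± 0.06, adjusted p = 3.66e-06) and Npc2 higher (0.58 ± 0.04, adjusted p = 5.97e-06). Of 23 cholesterol synthesis genes tested, 18 were not called. Of 40 lysosomal genes, all tested, 26 were lower and 5 higher, at a median of -0.28. Ctsb, cathepsin B, was at 6836, 6734, 6957 and 6653 TPM against 14513, 13538, 14390.2 and 13979 TPM (-0.75 ± 0.03, adjusted p = 8.78e-08). Ctsc, the protease that activates granule serine proteases, had the largest difference named in the list (-1.84 ± 0.07, adjusted p = 9.11e-08), and the asparaginyl protease Lgmn was lower (-0.63 ± 0.03, adjusted p = 4.56e-07). Tfeb, the transcription factor of lysosome biogenesis, was higher, at 65.6, 85.6, 80.3 and 67.9 TPM against 45.5, 50.4, 52.2 and 45.01 TPM (0.91 ± 0.10, adjusted p = 7.81e-05).

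Toll-like receptors and their adaptors were lower in 13 of 19 tested members and higher in 2, at a median of -0.48. Tlr2, the lipoprotein receptor, was at 14.3, 8.64, 12.4 and 11.4 TPM with IFN-γ and 37.3, 36.5, 40.1 and 37.1 TPM with IL-10 (-1.34 ± 0.13, adjusted p = 3.33e-05). Tlr4, the endotoxin receptor, was at 6.65, 7.01, 6.08 and 6.17 TPM against 19.6, 21.1, 21.6 and 22.4 TPM (-1.29 ± 0.10, adjusted p = 8.13e-06), and its co-receptor Ly96 was higher (0.90 ± 0.16, adjusted p = 0.00137). The RNA sensor Tlr8 (-1.24) and the common adaptor Myd88 (-0.94 ± 0.08, adjusted p = 1.06e-05) were lower without overlap. Inflammasome and pyroptosis genes were split 5 to 5 among 19 tested, and 2 higher to 10 lower without scaling. With scaling, this was near the 21% and 19.8% of all genes. Aim2, the DNA sensor (0.61 ± 0.15, adjusted p = 0.00917), Casp1 (0.51 ± 0.10, adjusted p = 0.00313) and Mlkl, the executor of necroptosis (0.92 ± 0.19, adjusted p = 0.00381), were higher, whereas Mefv, which encodes pyrin, was lower, at 5.75, 7.03, 4.84 and 5.38 TPM against 26.8, 27.2, 26.01 and 28.7 TPM (-1.80 ± 0.12, adjusted p = 3.08e-06), as was the kinase Ripk3 (-0.84 ± 0.21, adjusted p = 0.0105). Without scaling Aim2 (0.31, adjusted p = 0.0946) and Casp1 (0.22, adjusted p = 0.118) were not called. In the phagocyte oxidase, the membrane subunit Cyba was higher (0.67 ± 0.04, adjusted p = 1.42e-06), and 6 of 9 genes were not called.

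Glycolysis was the list with the lowest median among those on macrophage function, at -0.82, with 14 of 18 genes lower with IFN-γ and 1 higher. Pfkl, the liver-type phosphofructokinase, was at 11.1, 6.69, 7.05 and 8.3 TPM with IFN-γ and 49.2, 48.2, 45.6 and 47.2 TPM with IL-10 (-2.13 ± 0.14, adjusted p = 2.25e-06). Slc16a3, the lactate exporter MCT4, was at 22.6, 36.1, 17.4 and 13.9 TPM against 107, 109, 109.5 and 109 TPM (-2.02 ± 0.23, adjusted p = 1.00e-04), Hk2 at 8.2, 8.03, 6.31 and 4.86 TPM against 25.2, 25.4, 24.6 and 25.4 TPM (-1.49 ± 0.14, adjusted p = 3.51e-05), and the glucose transporter Slc2a1 at 13.2, 13.9, 14.3 and 10.99 TPM against 42.2, 43, 39.6 and 41.3 TPM (-1.31 ± 0.09, adjusted p = 4.04e-06). The groups were separate in each of these 4 genes. The abundant enzymes Eno1 (-1.09) and Gapdh (-0.68) were lower too, and Hk3, a hexokinase of myeloid cells, was the one that was higher (0.65 ± 0.07, adjusted p = 9.24e-05). Genes of the tricarboxylic acid cycle and respiratory chain were higher in 10 and lower in 5 of 32, which became 6 and 14 without scaling. The cytochrome oxidase subunit Cox6c (0.93 ± 0.05, adjusted p = 5.33e-07) and the complex II subunit Sdhb (0.79 ± 0.05, adjusted p = 1.29e-06) were higher, and Cs, citrate synthase (-0.41 ± 0.07, adjusted p = 0.00115), was lower. In the arginine, nitric oxide, itaconate and tryptophan list, with 1 higher and 4 lower of 10 tested, the member that was higher was Ass1, which regenerates arginine from citrulline, at 34.4, 28.9, 32.9 and 28.7 TPM against 9.5, 9.36, 10.5 and 11.2 TPM (1.81 ± 0.10, adjusted p = 6.62e-07). Among iron and antioxidant genes, 7 were higher and 5 lower of 24 (4 and 12 without scaling), against 21% and 19.8% of all genes. Sod1 (0.99 ± 0.06, adjusted p = 1.58e-06) and the ferritin chain Fth1 (0.53 ± 0.02, adjusted p = 1.08e-07) were higher and Hfe, a regulator of iron uptake, was lower (-1.15 ± 0.11, adjusted p = 3.48e-05). Slc11a1, the phagosomal metal transporter NRAMP1, was lower by little (-0.18 ± 0.05, adjusted p = 0.0194), a call lost without IL-10 BV421-1 (adjusted p = 0.0658) or BV421-2 (adjusted p = 0.053).

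Molecules that face T cells showed both directions. Of 17 checkpoint and costimulatory genes tested, 4 were higher and 6 lower (2 and 9 without scaling), against 21% and 19.8% of all genes. Pirb, an inhibitory receptor for MHC class I, was at 150, 160, 158 and 152 TPM with IFN-γ and 557, 556, 566 and 547 TPM with IL-10 (-1.54 ± 0.04, adjusted p = 2.34e-08), and Vsir, the checkpoint protein VISTA, was lower (-0.45 ± 0.05, adjusted p = 1.13e-04). Cd274, which encodes PD-L1, was at 113, 115, 118 and 122 TPM against 123, 128, 125 and 126 TPM, lower with IFN-γ in the deposited values in every library and higher after scaling (0.20 ± 0.05, adjusted p = 0.0127), and the difference without scaling was -0.10. Cd40 was not called (0.25 ± 0.29, adjusted p = 0.525). Among adhesion genes, 6 were higher and 6 lower of 21 (5 and 11 without scaling), against the same shares of all genes. Vcam1 was at 5.84, 6.41, 5.31 and 5.32 TPM against 18.7, 17.2, 17.5 and 16.03 TPM (-1.18 ± 0.11, adjusted p = 2.85e-05), and the integrin chains Itga6 (-1.13) and Itgam (-0.91) were lower. The lymphocyte integrin chains Itgb7 (1.59 ± 0.10, adjusted p = 2.43e-06) and Itgal (1.55 ± 0.10, adjusted p = 2.15e-06) were higher, in the direction of the T cell marker sums, and the part of T cell RNA was not tested.

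Among matrix genes, metalloproteinases and their inhibitors were mostly lower with IFN-γ. Of 11 metalloproteinase and inhibitor genes tested, 8 were lower and 2 higher. Mmp14, a membrane-bound collagenase, was at 13.2, 9.19, 8.25 and 10.96 TPM with IFN-γ and 57.5, 63.2, 55.7 and 56.2 TPM with IL-10 (-2.11 ± 0.13, adjusted p = 1.73e-06), and Mmp19 (-1.90 ± 0.11, adjusted p = 1.15e-06) and Mmp27 (-1.61) were lower. Mmp12, macrophage elastase, was the reverse, at 176, 206, 210.4 and 246 TPM against 109, 116, 117 and 108 TPM (1.18 ± 0.10, adjusted p = 1.49e-05), and at 844 ± 27.1 TPM in non-polarized macrophages. Stromal and contractile markers, typical of fibroblasts and smooth muscle, were at 36.47 to 75.88 TPM in sum with IFN-γ and 72.09 to 75.38 TPM with IL-10. Thy1, which is also on the T cell list, made up 30.37 to 66.48 TPM of these with IFN-γ and 9.23 to 12.96 TPM with IL-10. Without Thy1, a sum added after the values were seen, the other 19 markers were at 6.1 to 11.83 TPM with IFN-γ, 60.53 to 65.16 TPM with IL-10 and 211 to 249.4 TPM in non-polarized macrophages. Of all 20 markers, 8 to 9 were at 0 in the IFN-γ libraries and 1 to 2 in the IL-10 libraries. Acta2 was at 0.17, 0.63, 1.37 and 0 TPM against 11.9, 7.46, 9.91 and 12.2 TPM (-2.76 ± 0.30, adjusted p = 6.64e-05), and Col1a1 (-2.34 ± 0.17, adjusted p = 5.50e-06) and Fn1 (-2.42 ± 0.21, adjusted p = 1.58e-05) were lower too. Of the 9 stromal genes tested, Thy1 was higher and 7 were lower, and the count of lower genes ran from 3 to 8 as each library was left out and fewer genes passed the filter. Some of the 7 passed the filter through the IL-10 libraries alone, which fixed their direction in advance. With IFN-γ, Col1a1 was at 0.19 to 0.44 TPM and Myl9 at 0 in every library.

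Some groups outside macrophage function were higher with IFN-γ. Of 34 cell cycle genes tested, 17 were higher and none lower. Ccnd2 was at 20.98, 17.8, 16.8 and 7.54 TPM with IFN-γ and 4.95, 3.58, 5.58 and 2.72 TPM with IL-10 (1.90 ± 0.29, adjusted p = 7.09e-04), and the mitotic genes Cdk1 (1.07 ± 0.27, adjusted p = 0.0112) and Birc5 (1.26 ± 0.27, adjusted p = 0.00449) were higher, while the proliferation marker Mki67 was not called (-0.04 ± 0.15, adjusted p = 0.866). Lymphocytes use Ccnd2 as well, and the part of T cell RNA in these genes was not tested. Immediate early and heat shock genes were higher in 12 and lower in 3 of 24 (7 and 7 without scaling). The inducible heat shock gene Hspa1b was at 70.3, 157, 108 and 165 TPM against 16.4, 19.6, 17.9 and 21.3 TPM (2.89 ± 0.25, adjusted p = 1.79e-05), and its near-identical copy Hspa1a behaved alike (2.62). Among immediate early genes, Nr4a1 was higher (1.55 ± 0.14, adjusted p = 2.03e-05) and Egr1 lower (-1.39 ± 0.13, adjusted p = 2.75e-05).

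RNAs that carry no poly(A) tail, or only a short one, were higher in all 4 IFN-γ libraries, although the libraries were labelled as polyA RNA. The mitochondrial 12S ribosomal RNA mt-Rnr1 was at 2133, 4482, 3379.7 and 5131 TPM with IFN-γ and 352, 342, 364 and 398 TPM with IL-10 (3.60 ± 0.24, adjusted p = 2.93e-06). The 16S ribosomal RNA mt-Rnr2 (2.97 ± 0.23, adjusted p = 7.00e-06) and the RNA of RNase MRP, Rmrp (3.09 ± 0.52, adjusted p = 0.0011), followed. Summed over 11 such RNAs, a list chosen after their values were seen, the level was 7500, 12800, 10490 and 13890 TPM with IFN-γ and 1666, 1807, 1892 and 1852 TPM with IL-10. Their part in the other differences was not tested. Among mitochondrially encoded mRNAs, mt-Co2 was higher (1.47 ± 0.10, adjusted p = 2.98e-06) and mt-Nd5 lower (-0.61 ± 0.04, adjusted p = 3.42e-06), with 6 higher and 3 lower of 13, and 1 and 8 without scaling.

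**Figure D4:**
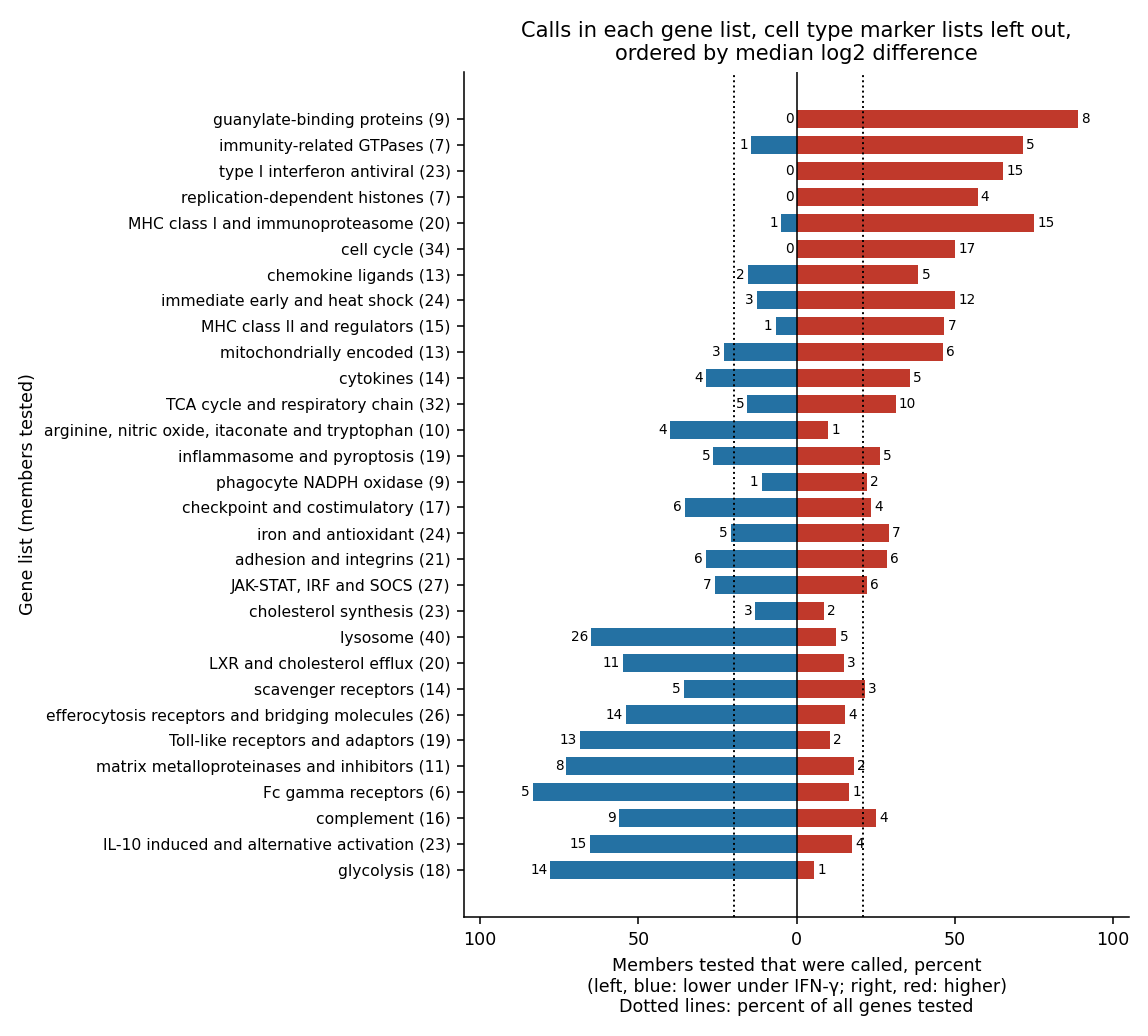
Percent of tested members of each gene list, with the cell type marker lists left out, that were called lower (left, blue) or higher (right, red) with IFN-γ, with the counts at the bar ends, ordered by the median log2 difference. Dotted lines mark the percent of all genes called lower (19.8) and higher (21), and the GBPs (8 of 9 higher) and glycolysis (14 of 18 lower) stand at the ends of the lists drawn.

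Whether the cytokine difference itself was particular to macrophages that had taken up Treg cells was tested as a difference of differences, the Treg-phagocytic difference minus that of another population. Against Tconv-phagocytic macrophages, 1771 of 12918 genes were called (13.7%), 574 with a higher value in Treg-phagocytic macrophages (4.44%) and 1197 with a lower one (9.27%). This split was 774 and 1046 with median-of-ratios scaling and 340 and 1427 without scaling. Against non-phagocytic macrophages, 1214 of 12872 genes were called (9.43%), 354 higher (2.75%) and 860 lower (6.68%). The 2 tests share the 8 Treg-phagocytic libraries, so their results are set side by side and are not independent of each other. Where a gene has a pair of values, the first is against Tconv-phagocytic and the second against non-phagocytic macrophages.

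For Gbp2, Gbp4, Irf1, Iigp1 and Irgm1, the log2 difference between the cytokines was above 0 in each population and smaller in Treg-phagocytic macrophages than in either other one. Gbp2 reached 62.7 ± 13.8 TPM (SD, n = 4) in Treg-phagocytic macrophages with IFN-γ, but 200.2 ± 38.2 TPM in Tconv-phagocytic and 262 ± 28.04 TPM in non-phagocytic ones, whereas with IL-10 it was at 11.7 ± 1.001, 8.81 ± 0.927 and 8.1 ± 0.255 TPM. Its difference of differences was -1.97 ± 0.22 (SE, adjusted p = 3.10e-05) against Tconv-phagocytic and -2.56 ± 0.19 (SE, adjusted p = 6.27e-07) against non-phagocytic macrophages. Gbp4 gave -2.60 (adjusted p = 1.66e-05) and -3.04 (adjusted p = 2.20e-07). Irf1, at 105 ± 14.4, 244 ± 39.3 and 199 ± 11.7 TPM with IFN-γ in the same order of populations, gave -1.14 (adjusted p = 1.27e-04) and -0.95 (adjusted p = 9.89e-05), Iigp1 -1.32 (adjusted p = 0.00201) and -1.16 (adjusted p = 0.0035) and Irgm1 -1.05 (adjusted p = 6.63e-05) and -1.04 (adjusted p = 4.30e-06). Of the GBPs, 6 of 10 tested were called lower against Tconv-phagocytic and 6 of 11 against non-phagocytic macrophages, with none higher in either. Type I interferon antiviral genes were called lower in 7 of 25 in each test, and class I genes in 9 and 11 of 20, with none higher in either. In class II, 7 of 15 were called lower against Tconv-phagocytic and 9 of 15 against non-phagocytic macrophages, with 1 higher in each. With median-of-ratios scaling the first of these counts was 5. Ciita gave -1.13 (adjusted p = 0.0057) and -0.999 (adjusted p = 0.0444), but its differences had opposite signs. Its log2 difference was -0.83 in Treg-phagocytic and 0.30 in Tconv-phagocytic macrophages in the first fit, and -0.81 in Treg-phagocytic and 0.19 in non-phagocytic ones in the second. The second call of Ciita was lost whichever library was left out, other than IFN-γ non-phagocytic 3 and IFN-γ Treg-phagocytic BV421-1, at adjusted p of up to 0.0867, and also without a filter (adjusted p = 0.0985) and under the replicate block (adjusted p = 0.0767). With IFN-γ it was at 3.25 ± 1.24 TPM in Treg-phagocytic, 9.63 ± 1.08 TPM in Tconv-phagocytic and 7.59 ± 1.99 TPM in non-phagocytic macrophages. H2-Ab1 gave -0.37 (adjusted p = 0.041) and -1.05 (adjusted p = 9.54e-06). Its first call was lost in 14 of 24 alternative settings, at adjusted p of up to 0.119, among them median-of-ratios scaling, the replicate block (adjusted p = 0.0548) and the omission of any 1 IL-10 library or of IFN-γ Tconv-phagocytic BV421-2 or Ax647-1 or IFN-γ Treg-phagocytic BV421-1. For Cd74 (-0.05, adjusted p = 0.742, and -0.78, adjusted p = 1.38e-05) only the second was called. Tap1 (-0.51, adjusted p = 1.41e-04, and -0.52, adjusted p = 7.55e-04), Ccl5 (-0.83, adjusted p = 0.00269, and -1.40, adjusted p = 1.45e-05) and Cd274 (-0.55, adjusted p = 1.60e-04, and -0.50, adjusted p = 1.19e-04) were called lower in both.

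**Figure D5:**
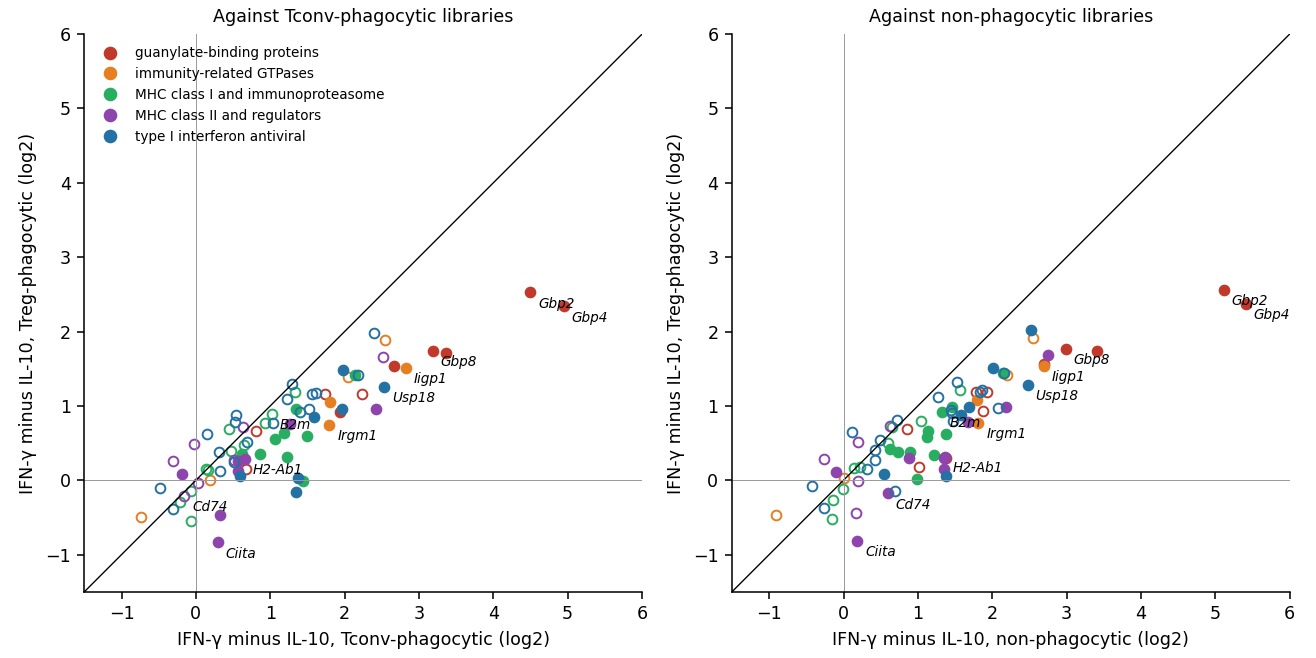
Log2 difference between IFN-γ and IL-10 in Treg-phagocytic macrophages (y axis) against the same difference in Tconv-phagocytic (left) and non-phagocytic (right) macrophages, each point a gene of 5 lists. Filled points were called in the difference of differences, and Gbp2 and Gbp4 lie furthest below the diagonal line of equal differences.

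In the list of IL-10-induced and alternative activation genes, 4 were called higher and 2 lower of 24 against Tconv-phagocytic macrophages (13.7% of all genes were called there), and 3 higher and 1 lower of 24 against non-phagocytic ones (9.43% of all genes). With median-of-ratios scaling the first count was 7 higher and 2 lower. Socs3, Il4ra, Bcl3 and Saa3 were called in neither. Socs3 gave 0.10 (adjusted p = 0.745) and 0.27 (adjusted p = 0.329), Il4ra -0.09 (adjusted p = 0.575) and 0.07 (adjusted p = 0.667), Bcl3 -0.04 (adjusted p = 0.89) and 0.12 (adjusted p = 0.776) and Saa3 0.12 (adjusted p = 0.556) and -0.01 (adjusted p = 0.972). The 95% intervals of the pair were -0.23 to 0.43 and -0.06 to 0.60 for Socs3, -0.28 to 0.10 and -0.10 to 0.25 for Il4ra, -0.33 to 0.24 and -0.30 to 0.54 for Bcl3 and -0.11 to 0.35 and -0.28 to 0.25 for Saa3, so a missed threshold does not show equal responses. Stat3 itself was called in both (-0.81, adjusted p = 1.68e-04, and -0.68, adjusted p = 0.00172). With IFN-γ it was at 39.2 ± 3.24 TPM in Treg-phagocytic, 79.2 ± 8.61 TPM in Tconv-phagocytic and 79.95 ± 9.998 TPM in non-phagocytic macrophages.

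Efferocytosis genes varied by the population they were set against, with 5 higher and 2 lower of 27 against Tconv-phagocytic and 7 higher and 3 lower of 26 against non-phagocytic macrophages. Of all genes, 4.44% were called higher and 9.27% lower in the first test, and 2.75% and 6.68% in the second. Mertk gave -0.76 (adjusted p = 9.99e-04) and -0.91 (adjusted p = 3.53e-05). It did not differ between the cytokines by more than 0.18 log2 units in the Tconv-phagocytic and non-phagocytic macrophages. Axl was called only against non-phagocytic macrophages (-0.16, adjusted p = 0.471, and -1.56, adjusted p = 1.83e-05), as was Vcam1 (-0.61, adjusted p = 0.219, and -2.86, adjusted p = 6.15e-07), which was at 0.897 ± 0.142 TPM with IL-10 in non-phagocytic macrophages and 17.4 ± 1.09 TPM in Treg-phagocytic ones. In Treg-phagocytic macrophages the log2 difference between the cytokines was negative for both genes (-0.48 for Axl and -1.18 for Vcam1). The values against non-phagocytic macrophages are more negative than these. The cytokine difference in non-phagocytic macrophages was therefore positive for both. Vcam1 was also called against Tconv-phagocytic macrophages without IFN-γ Tconv-phagocytic BV421-1 (adjusted p = 0.0103). The cytokine difference of Mmp12 was larger than in non-phagocytic macrophages (-0.25, adjusted p = 0.296, and 1.12, adjusted p = 1.68e-05), and those of Cd36 (0.15, adjusted p = 0.41, and 0.45, adjusted p = 0.0104) and Mfge8 (0.03, adjusted p = 0.834, and 0.37, adjusted p = 3.20e-04) were higher in that test alone. The Cd36 call was lost under the replicate block (adjusted p = 0.0678). C1qa (0.39, adjusted p = 0.00575, and 0.10, adjusted p = 0.387), Apoe (0.37, adjusted p = 6.24e-04, and -0.15, adjusted p = 0.126) and Mrc1 (0.36, adjusted p = 0.0111, and 0.30, adjusted p = 0.0588) were called higher against Tconv-phagocytic macrophages, which means that they were lower with IFN-γ by less in Treg-phagocytic macrophages. The Mrc1 call was lost under the replicate block (adjusted p = 0.0535). Against non-phagocytic macrophages C1qa was called only without IFN-γ Treg-phagocytic Ax647-1 (adjusted p = 0.0438) and Mrc1 only without IFN-γ non-phagocytic 4 or IFN-γ Treg-phagocytic BV421-1 among the omissions of 1 library (adjusted p = 0.0103 and 0.0117).

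Genes outside the interferon and efferocytosis lists were called too. The heat shock genes Hspa1b (-2.85, adjusted p = 2.62e-05, and -2.71, adjusted p = 3.00e-05), Hspa1a (-2.83, adjusted p = 3.55e-05, and -2.53, adjusted p = 5.80e-05), the histone gene Hist1h2bg (-3.10, adjusted p = 4.31e-05, and -3.16, adjusted p = 4.44e-05) and mt-Rnr1 (-1.92, adjusted p = 4.06e-04, and -2.27, adjusted p = 4.83e-05) were called lower in both. Mean mt-Rnr1 was 3781 ± 1315 TPM in Treg-phagocytic macrophages with IFN-γ against 11450 ± 2224 and 11280 ± 633 TPM in Tconv-phagocytic and non-phagocytic ones. Trac was called lower only against non-phagocytic macrophages (-0.53, adjusted p = 0.2, and -1.19, adjusted p = 0.0128). That call was lost with a variance weight per group (adjusted p = 0.0603) and under the replicate block (adjusted p = 0.056), and without IL-10 Treg-phagocytic Ax647-1 Trac was called against Tconv-phagocytic ones (adjusted p = 0.038). The stromal genes Sparc (2.85, adjusted p = 2.06e-04, and 0.53, adjusted p = 0.494) and Acta2 (2.26, adjusted p = 0.00116, and 0.97, adjusted p = 0.12) were called higher against Tconv-phagocytic macrophages, where the stromal sum without Thy1 was 260.3 to 274.2 TPM with IL-10. The Acta2 call was lost with a pseudocount of 0.1 (adjusted p = 0.222). Acta2 was called in the second test as well with a pseudocount of 5 (0.94, adjusted p = 9.81e-04) and without IFN-γ non-phagocytic 1 or IFN-γ Treg-phagocytic BV421-2 (adjusted p = 0.0488 and 0.0412). Rcn3, a collagen-processing chaperone, was called higher against Tconv-phagocytic macrophages (1.89, adjusted p = 0.0122, and 1.02, adjusted p = 0.405), and the mitochondrial genes Fastkd3 (0.62, adjusted p = 0.381, and 1.34, adjusted p = 0.0157) and Oxsm (0.57, adjusted p = 0.325, and 1.33, adjusted p = 0.00754) against non-phagocytic macrophages. The DNA repair gene Smug1 was called higher in both (0.99, adjusted p = 0.0482, and 1.28, adjusted p = 0.0351), but the first call was lost in 18 and the second in 10 of 24 alternative settings, at adjusted p of up to 0.103 and 0.0807. The fatty acid elongation gene Hacd2 was called against non-phagocytic macrophages (0.53, adjusted p = 0.364, and 1.25, adjusted p = 0.0359), and that call was lost in 13 of 24 settings, at adjusted p of up to 0.0793. Leaving out any 1 of the IL-10 Treg-phagocytic libraries was among the settings that lost each of these 3 calls. In the main fit of the Treg-phagocytic libraries alone, Hist1h2bg (-0.63), Sparc (-0.59) and Rcn3 (0.54) were not called between the cytokines. Nor were Fastkd3 (0.58), Oxsm (-0.03), Smug1 (0.37) and Hacd2 (0.32).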

How the data were processed

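RNA of 28 libraries of mouse bone marrow-derived macrophages was sequenced as polyA RNA with a strand-specific kit, per the labels' protocols. The authors deposited 1 table of TPM per library, abundances normalised to transcript length and to the library total, with 55487 identifiers each. The submitters' processing notes name STAR, RSEM and the build mm10, without their versions. No counts were used, so depth was judged only from the steps between low TPM values of genes with 1 transcript, 15524 in all. Each of the 8 Treg-phagocytic libraries gave 893 to 1500 such values. Of these values, 89.4% to 92.5% were no more than 0.15 reads from an integer, where random values would give 30%. The step was judged from the same values, so this share describes the fit and is no test against chance. Judged by the step, the IFN-γ libraries had 11.2% to 20.4% and the IL-10 libraries 49.4% to 66.1% of the depth of the deepest library.

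TPM were divided by an unweighted trimmed-mean factor (30% of ratios and 5% of levels trimmed at each end), log2 transformed with a pseudocount of 1 and fitted with limma 3.58.1 in R 4.3.3, with a mean-variance trend, on the 4 IFN-γ and 4 IL-10 Treg-phagocytic libraries only. Genes needed at least 1 TPM in 4 fitted libraries, and calls used a Benjamini-Hochberg adjusted p under 0.05 over all genes tested. Each difference of differences was fitted on 16 libraries, the 8 and the 8 of the other population. Group labels came from the titles, and no 2 of the 378 library pairs were identical. The script was tested on simulated data.

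Genes were named by a written rule: the 8 called genes at each end of the difference, 53 key genes (46 tested), up to 4 called members at each end of each gene list, and the 4 called genes at each end of each difference of differences, with a mean of at least 5 TPM in the higher group. Some members were named for their role after their values were seen. The members and the 39 lists were chosen with earlier results of these data known. Lists are described by counts and medians, with no set test. Promoter letters came from RefSeq (GRCm38.p6). Alternatives covered the scaling, pseudocount, filter, weights, dye, a replicate block, all 28 libraries and the omission of each library. Reads of near-identical genes may have been divided between copies. A few genes that the rule names are not reported here.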

Additional observations from a re-analysis of the deposited data

Results flagged for a closer look

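Of 384 groups of 4 libraries, 10 held 1 library that stood apart, with a gap to the nearest other library that exceeded Dixon's 95% critical share of the group's whole range. Chance alone gives about 1 such group in 20, and the share here was 2.6%. With IFN-γ, the library Ax647-2 was highest for Psme2 at 517.4 TPM against 248.3 to 280.9 TPM in the other 3, a gap of 0.879 of the range, and for Usp18 at 12.94 TPM against 7.33 to 8.22 TPM (0.841). Ax647-1 was highest for Col1a1 at 0.44 TPM against 0.19 to 0.2 TPM (0.96). BV421-2 was lowest for Gbp9 at 5.74 TPM against 7.85 to 8.18 TPM (0.865). With IL-10, the library BV421-2 was highest for Tgtp2 at 4.08 TPM against 2.09 to 2.31 TPM (0.889) and lowest for Vsir at 406.6 TPM against 418 to 418.8 TPM (0.936). BV421-1 was lowest for Stat4 at 1.4 TPM against 2.1 to 2.23 TPM (0.843). Ax647-1 was highest for Nxpe5 at 49.3 TPM against 45.71 to 46.23 TPM (0.855) and lowest for Casp1 at 36.09 TPM against 42.12 to 42.83 TPM (0.895). The same library had the fewest genes above 0 TPM, 16942 against 17617 to 17676 (0.92).

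The cytokine difference of the following genes was called different in another population by the test of the difference itself. Values are the log2 difference in Treg-phagocytic macrophages minus that in Tconv-phagocytic and then in non-phagocytic macrophages. Among interferon-pathway genes and surface molecules they were -0.81 and -0.68 for Stat3, -1.14 and -0.95 for Irf1, -1.97 and -2.56 for Gbp2, -2.60 and -3.04 for Gbp4, -1.32 and -1.16 for Iigp1 and -1.05 and -1.04 for Irgm1. They were -1.13 and -0.999 for Ciita, -0.37 and -1.05 for H2-Ab1, -0.51 and -0.52 for Tap1, -0.83 and -1.40 for Ccl5, -0.55 and -0.50 for Cd274 and -0.76 and -0.91 for Mertk. RNAs outside these pathways gave -1.92 and -2.27 for mt-Rnr1, -2.83 and -2.53 for Hspa1a, -2.85 and -2.71 for Hspa1b and -3.10 and -3.16 for Hist1h2bg. A higher value came from Smug1 at 0.99 and 1.28.

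Against Tconv-phagocytic macrophages only, the called values were 0.36 for Mrc1, 0.39 for C1qa, 0.37 for Apoe, 2.85 for Sparc, 2.26 for Acta2 and 1.89 for Rcn3. Against non-phagocytic macrophages only, they were -0.78 for Cd74, -1.56 for Axl, -2.86 for Vcam1 and -1.19 for Trac on the lower side. On the higher side they were 1.12 for Mmp12, 0.45 for Cd36, 0.37 for Mfge8, 1.34 for Fastkd3, 1.33 for Oxsm and 1.25 for Hacd2.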

How the results depend on the processing

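With IFN-γ against IL-10, 4825 genes were called, and scaling by the median of ratios gave 4805. The count was 6182 for unscaled values, 4775 and 4835 with pseudocounts of 0.1 and 5, 4947 without a filter, 4288 with a filter of 5 TPM, 4680 with a variance weight per group, 4717 with dye as a covariate and 6418 with all 28 libraries in 1 model. With each library left out in turn it ran from 3885 to 4883. It was 1011 with a log2 difference of at least 1, 2640 in the BV421 libraries alone and 2338 in the Ax647 libraries alone, which hold 2 libraries a group. The deviations of libraries with the same dye and number correlated at 0.001, 0.038, 0.005 and -0.020. Only Ax647-2 correlated best with its own number. Whether libraries with the same number shared a culture or day was not tested. With a replicate block the count was 4293, the difference of differences against Tconv-phagocytic macrophages gave 1294 in place of 1771 genes, and that against non-phagocytic macrophages gave 809 in place of 1214. The cause of the lower counts under the block was not tested. Omission of 1 library gave 1375 to 2015 and 905 to 1460 genes in these tests. Of 184 genes with values in the text, 162 were called, and 140 of these kept their call and direction under every setting in which they passed the filter. Some low genes did not pass it in all 20 settings, such as Ppbp and Col1a1, tested in 14, and Igkv15-103, tested in 13. Without scaling, 9 genes that were not called gained a call with the same sign. In that setting the difference of Cd274 became -0.10 (adjusted p = 0.0917) and that of Mfge8 -0.19 (adjusted p = 0.00262), where the median of all genes was -0.29. In the libraries of 1 dye alone, calls lost were those of Irf8, Gbp5, H2-Ab1, Il27, Axl, Mlkl and Birc5 in Ax647, of Il15, C3, Aim2, Casp1, Ccnd2 and Cdk1 in BV421, and of Gbp7, Ciita, Osm, Cd274, Abcg1, Ripk3 and Slc11a1 in each. Of 50 called differences of differences named, 41 were called under every setting in which the gene passed the filter. The shallower IFN-γ libraries limit what can be said of low genes, since 1 read in a transcript of 1000 effective bases was worth up to 0.586 TPM there.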
